A study of Mus musculus with 6 samples.

Results

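The claudins described here are 10 genes of the claudin family read on arrays of E14.5 mouse embryonic bladder RNA. They were chosen by name as the array features whose only annotated symbol was Cldn1, Cldn3, Cldn4, Cldn5, Cldn6, Cldn7, Cldn8, Cldn11, Cldn12 or Cldn23. All 10 were found, each with 1 feature, among 19938 genes with a single symbol. Total RNA was compared between 3 Klf5-deleted samples, with the genotype Klf5 ∆/∆, and 3 control samples, Klf5+/+ and carrying ShhGfpCre; 2 whole bladders went into each sample. ShhGfpCre places Cre recombinase in cells that express Shh, which in the bladder are the cells of its epithelium. The labels do not state which Cre allele the Klf5-deleted embryos carried, nor whether pools of the same genotype had different litters as their source, so the p-values measure the spread between these pools. The sample source is labelled as urothelium, but the extraction was of whole bladders, and markers of muscle, connective tissue, vessels and blood were read on every array.

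Claudins are membrane proteins with 4 passes through the membrane whose outer loops meet between neighbouring cells and form the strands of the tight junction. The set of claudins that an epithelium makes decides how tightly it seals and which ions pass between the cells, and scaffold proteins of the ZO family hold the strands at the cell border. The urothelium keeps urine from the tissue beneath it, and tight junctions of its surface cells are part of that barrier. Cldn3, Cldn4, Cldn7, Cldn8 and Cldn23 are claudins of epithelia, Cldn1 is required for the barrier of the epidermis, Cldn6 is made by embryonic epithelia, and Cldn12 is expressed in many tissues. Cldn5 is the main claudin of endothelium, and Cldn11 is best known from myelin and from the Sertoli cells of the testis.

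Cldn4 and Cldn3 are neighbouring genes on chromosome 5 with 0 other protein-coding genes between them, and the stretch before the start of each is shown because Cldn4 passed the test and Cldn3 did not. Cldn1, an epithelial claudin with nearly equal means in both genotypes, and Cldn5, of endothelium, are shown beside them. Each line is the 250 bases before the gene's start in RefSeq, 5′ to 3′ in the direction of the gene, build GRCm38.p6. The capitals mark 4 short motifs searched on both strands, named here with their letters: the GC box GGGCGG and the CACCC box CACCC, the kinds of site that Krüppel-like factors are known to bind; the grainyhead-like motif AACCNGGTT; and the E-box CACCTG, the kind of site that Snail repressors bind. No match overlapped another motif.
Cldn4, chr5:134946935-134947184, minus strand: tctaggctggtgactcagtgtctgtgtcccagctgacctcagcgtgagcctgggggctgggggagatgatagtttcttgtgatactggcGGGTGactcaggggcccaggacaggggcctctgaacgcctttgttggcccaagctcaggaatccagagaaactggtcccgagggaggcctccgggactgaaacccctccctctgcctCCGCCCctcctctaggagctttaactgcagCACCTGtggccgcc
Cldn3, chr5:134985964-134986213, plus strand: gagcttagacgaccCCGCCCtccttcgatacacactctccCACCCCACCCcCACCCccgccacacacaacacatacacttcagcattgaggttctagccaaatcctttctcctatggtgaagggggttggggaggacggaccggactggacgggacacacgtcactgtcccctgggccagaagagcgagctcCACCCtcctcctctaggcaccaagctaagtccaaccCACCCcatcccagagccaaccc
Cldn1, chr16:26371840-26372089, minus strand: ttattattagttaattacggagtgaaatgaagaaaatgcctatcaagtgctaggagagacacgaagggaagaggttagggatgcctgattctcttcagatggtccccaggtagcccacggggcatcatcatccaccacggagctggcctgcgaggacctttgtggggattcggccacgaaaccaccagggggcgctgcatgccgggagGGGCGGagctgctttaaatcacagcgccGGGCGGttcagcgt
Cldn5, chr16:18776597-18776846, plus strand: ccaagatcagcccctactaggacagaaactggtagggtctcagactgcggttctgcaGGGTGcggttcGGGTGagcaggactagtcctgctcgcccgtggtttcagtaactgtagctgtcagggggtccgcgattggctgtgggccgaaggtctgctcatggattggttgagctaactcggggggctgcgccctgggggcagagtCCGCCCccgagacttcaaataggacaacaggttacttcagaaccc

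The Cldn4 stretch held 1 GC box, at 44 bases before the start, 1 CACCC box at 161 bases and 1 E-box at 14 bases. The Cldn3 stretch held 5 CACCC boxes and 1 GC box. The Cldn1 stretch held 2 GC boxes and no CACCC box, and the Cldn5 stretch held 1 GC box and 2 CACCC boxes. These motifs are common: of 32851 RefSeq promoter windows of the same length, 32.7% held the GC box, 52% the CACCC box and 17.2% the E-box. The grainyhead-like motif stood in 0.24% of the windows and in none of the 11 windows of the 8 members listed in the table. Cldn8 and Cldn23 were the members with no sequence there. The matches describe the letters only, and binding was not measured.

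Among the 10 claudins, 2 epithelial members, Cldn4 and Cldn23, fell in the Klf5-deleted bladders, and none rose. Cldn4 was 2.14-fold lower and Cldn23 was 1.61-fold lower. A gene was counted as fallen or risen where limma gave a Benjamini-Hochberg adjusted p under 0.05 over all 19938 genes; by that rule 1.59% of all genes fell and 0.386% rose. For 5 of the 10 claudins, Cldn3, Cldn4, Cldn7, Cldn8 and Cldn23, all 3 Klf5-deleted arrays lay below all 3 control arrays, where 11.8% of all genes did. None of the 10 had its Klf5-deleted arrays above its controls, against 8.67% of all genes. The median difference of the 10 was -0.26 on the log2 scale, against -0.01 over all genes. In bulk RNA of whole bladders, fewer epithelial cells and less RNA per epithelial cell cannot be told apart.

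**Figure D1:**
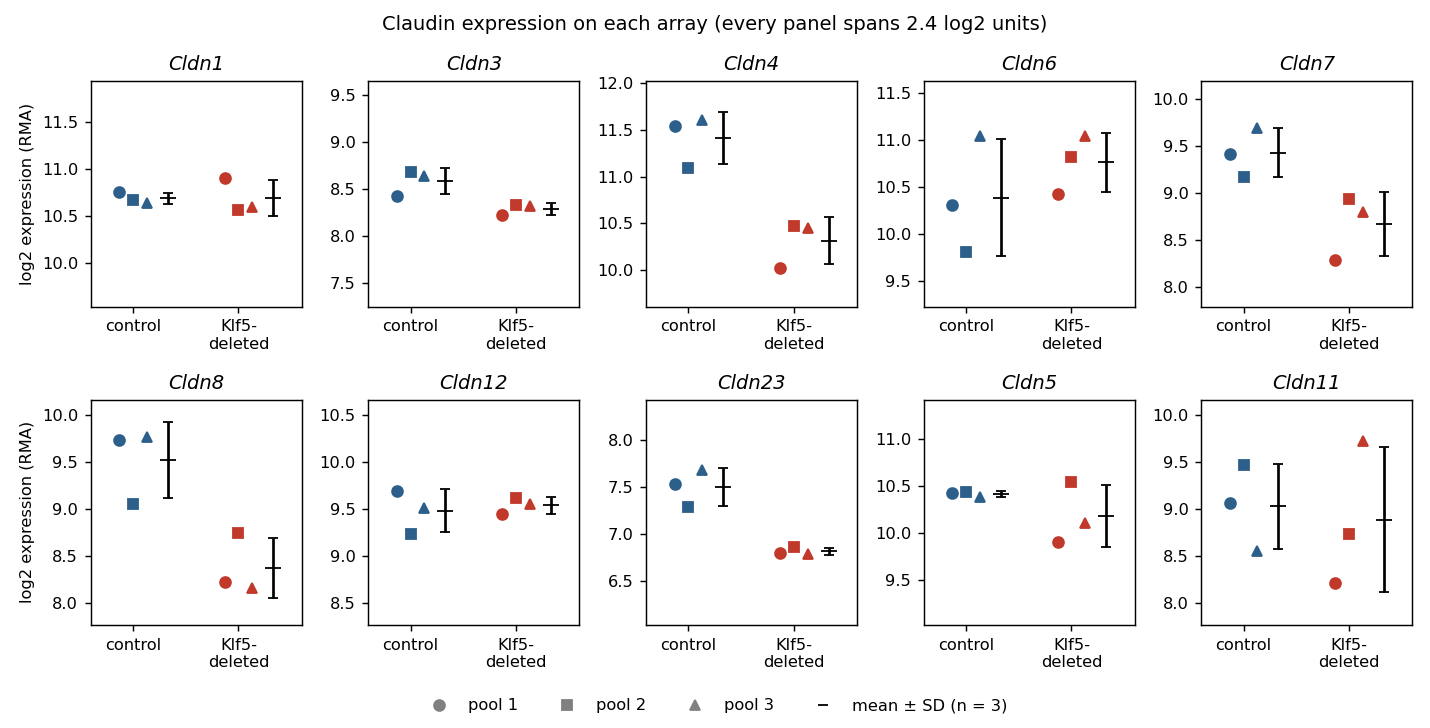
Log2 expression (RMA) of each claudin on each array, control in blue and Klf5-deleted in red, with the mean ± SD of 3 arrays in black; symbols give the pool number. Every panel spans the same log2 range, so heights can be compared between panels while levels cannot. The red points lie below all blue points for Cldn3, Cldn4, Cldn7, Cldn8 and Cldn23.

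Cldn4, a sealing claudin of many epithelia and a receptor of the enterotoxin of Clostridium perfringens, gave log2 values of 10.03, 10.47 and 10.45 on the Klf5-deleted arrays and 11.54, 11.09 and 11.61 on the control arrays. The groups were separated by 0.62, which was more than the range within either group. The means were 10.32 ± 0.25 (SD, n = 3) and 11.41 ± 0.28 (SD, n = 3). The difference was -1.10 (SE 0.17, 95% interval -1.49 to -0.70, adjusted p = 0.0235 by limma).

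Cldn23, a less studied claudin of epithelia, read 6.80, 6.85 and 6.78 on the Klf5-deleted arrays and 7.53, 7.28 and 7.68 on the control arrays. The Klf5-deleted arrays lay within 0.08 of each other, and the control arrays spread over 0.40. The difference was -0.68 (SE 0.10, 95% interval -0.93 to -0.44, adjusted p = 0.022 by limma). Differences of dim features are made smaller by RMA, and whether this feature stood above background was not analysed here. The calls of Cldn4 and Cldn23 held without control 2, with adjusted p of 0.00647 and 0.00504, and were both lost when any other array was left out, where limma gave an adjusted p of 0.0533 to 0.104 for Cldn4 and 0.0514 to 0.103 for Cldn23. Their differences stayed between -1.26 and -0.95 and between -0.79 and -0.59 in all of these fits.

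Cldn8, a claudin of the collecting duct and other tight epithelia that is known as a partner of Cldn4, had the largest measured difference of the 10 members and did not pass. It read 8.22, 8.74 and 8.16 on the Klf5-deleted arrays against 9.73, 9.05 and 9.76 on the control arrays. The groups did not overlap, and between them Klf5-deleted 2 and control 2 came nearest to each other. The difference was -1.15 (SE 0.23, 95% interval -1.67 to -0.62; adjusted p = 0.0559 by limma). Without control 2 the difference was -1.38 and the adjusted p 0.0101 by limma, so that 3 claudins fell in that fit.

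Cldn7, a claudin found along the sides of epithelial cells as well as at the tight junction, read 8.29, 8.94 and 8.80 on the Klf5-deleted arrays and 9.42, 9.18 and 9.70 on the control arrays. The groups lay 0.24 apart, less than the range within either of them. The difference was -0.76 (SE 0.19, 95% interval -1.20 to -0.31, adjusted p = 0.118 by limma), and Cldn7 did not pass in any of the 14 other settings tried.

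Cldn3, the neighbour of Cldn4 and likewise a receptor of that enterotoxin, had a smaller difference. It read 8.22, 8.33 and 8.32 on the Klf5-deleted arrays and 8.43, 8.68 and 8.64 on the control arrays, with a gap of 0.09 between the groups. The difference was -0.29 (SE 0.09, 95% interval -0.49 to -0.09, adjusted p = 0.17 by limma). Within each array, the log2 value of Cldn3 minus that of Cldn4 was 0.81 higher in the Klf5-deleted bladders, and the groups did not overlap in this quantity.

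The other 3 epithelial members were not lower. Cldn1, without which the epidermis loses water, read 10.91, 10.56 and 10.60 on the Klf5-deleted arrays and 10.75, 10.67 and 10.64 on the control arrays, so the groups overlapped. Its difference was 0.00 (95% interval -0.23 to 0.24, adjusted p = 0.995 by limma). That interval leaves out a fall as large as the one measured for Cldn4.

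Cldn12, a claudin of many tissues that can form channels for calcium, read 9.45, 9.62 and 9.56 on the Klf5-deleted arrays and 9.69, 9.24 and 9.51 on the control arrays. All 3 Klf5-deleted values fell inside the range of the controls. The difference was 0.06 (95% interval -0.22 to 0.33, adjusted p = 0.886 by limma).

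Cldn6, a claudin of embryonic epithelia, varied most among the epithelial members within the control group. It read 10.42, 10.81 and 11.04 on the Klf5-deleted arrays and 10.31, 9.81 and 11.04 on the control arrays. Control 3 matched the highest Klf5-deleted array, and control 2 was the lowest of all. The difference was 0.37 (95% interval -0.33 to 1.08, adjusted p = 0.649 by limma), and it was 0.09 without control 2 and 0.70 without control 3.

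**Figure D2:**
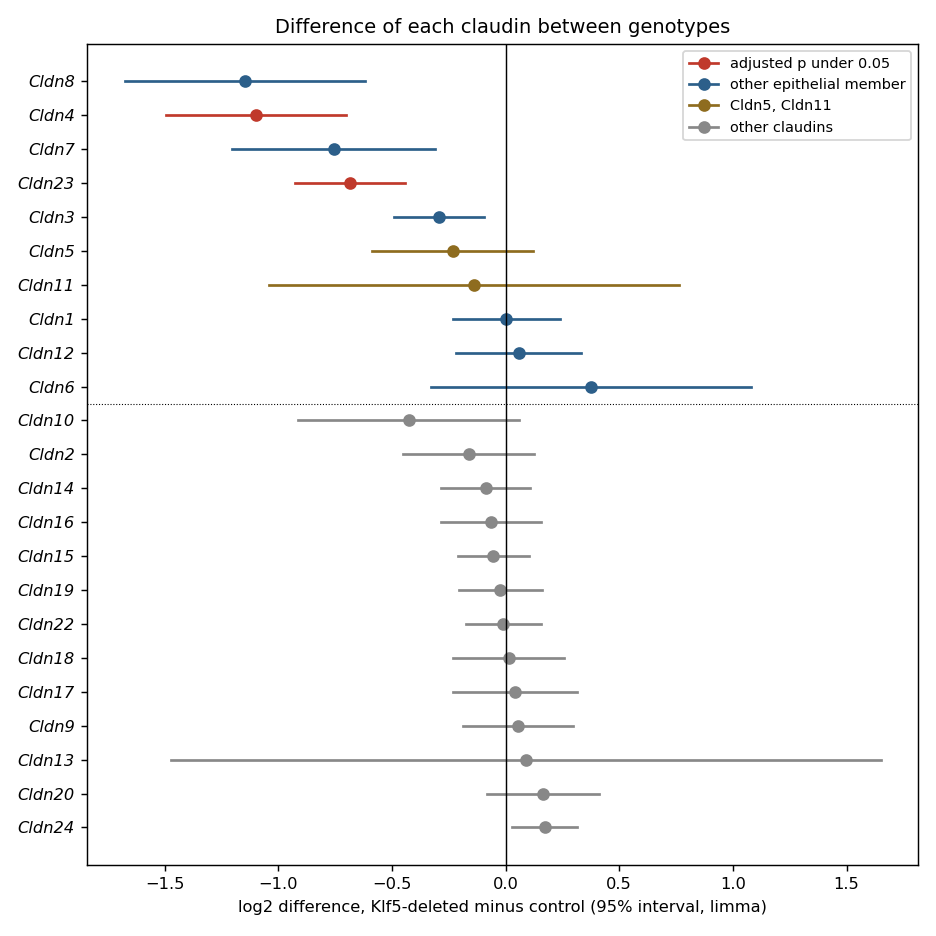
Log2 difference of each claudin, Klf5-deleted minus control, with limma's 95% interval; the 10 members stand above the dotted line and 13 other claudins of the array below it. Cldn4 and Cldn23, in red, passed an adjusted p of 0.05, and the intervals of Cldn3, Cldn7 and Cldn8 also lay below 0.

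Each pair of the 8 epithelial claudins was also compared by the difference of their log2 values within an array, with a two-sided exact permutation test over the arrays that can give no p under 0.1. Of the 28 pairs, 16 did not overlap between genotypes, and the smallest p adjusted over the 28 was 0.175, so none could pass. The pairs reuse the same 8 genes, and each of the 16 held Cldn4, Cldn7, Cldn8 or Cldn23, which were lower by themselves. The count therefore largely repeats those differences, and the share among pairs of all genes was not computed. Relative to Cldn1 on the same array, Cldn4 was 1.10 lower, Cldn8 1.15 lower, Cldn7 0.76 lower and Cldn23 0.69 lower in the Klf5-deleted bladders, each without overlap. Relative to Cldn4, Cldn8 differed by 0.05 and its groups overlapped.

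In the 2 members assigned to other cells, neither gene passed the test. Cldn5, of endothelium, read 9.90, 10.54 and 10.10 on the Klf5-deleted arrays and 10.42, 10.43 and 10.38 on the control arrays. The controls lay within 0.06 of each other, and the Klf5-deleted arrays lay on both sides of them. The difference was -0.23 (SE 0.15, 95% interval -0.59 to 0.12, adjusted p = 0.556 by limma). Of 15 endothelial markers 14 were lower, against 53.5% of all genes, with a median difference of -0.19. None passed, where 1.98% of all genes did, and 7 lay below their controls without overlap, against 11.8% of all genes. The mean log2 level of that list was 10.12 to 10.36 on the Klf5-deleted and 10.38 to 10.51 on the control arrays. The part of endothelial content in the Cldn5 reading was not tested.

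Cldn11 had the largest SE of the 10 members, though Cldn6 had the wider range within the control group, 1.23 against 0.91. It read 8.21, 8.73 and 9.72 on the Klf5-deleted arrays and 9.06, 9.46 and 8.55 on the control arrays, and the groups overlapped. The difference was -0.14 (SE 0.38, 95% interval -1.04 to 0.76, adjusted p = 0.92 by limma). A change as large as the fall of Cldn23 lay inside that interval, so the array number here could not show whether Cldn11 moved. The myelin genes Mbp and Mog were on the array too and differed by -0.21 and -0.01 (adjusted p = 0.338 and 0.964 by limma).

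The contrast of epithelial claudins with these 2 genes was taken within each array. The log2 value of Cldn4 minus that of Cldn5 was 0.13, -0.07 and 0.35 on the Klf5-deleted arrays and 1.12, 0.66 and 1.23 on the control arrays. These groups did not overlap, and the genotypes differed by -0.86. Cldn8 minus Cldn5 differed by -0.91 and Cldn7 minus Cldn5 by -0.52, also without overlap. Cldn23 minus Cldn5 differed by -0.45 and Cldn3 minus Cldn5 by -0.06, and in these the groups overlapped. Against Cldn11 the differences ran from -1.01 for Cldn8 to 0.51 for Cldn6, and all 8 overlapped. Leaving out 1 array moved Cldn8 minus Cldn11 to between -1.46 and -0.48 and Cldn6 minus Cldn11 to between 0.01 and 1.08, with control 2 left out at the first end of each range. In the exact permutation test, two-sided, the 3 pairs without overlap gave a p of 0.1, the smallest that 20 splits allow, and an adjusted p of 0.533 over the 16 pairs. No pair could have passed 0.05 in this design, so the test says nothing on whether the epithelial claudins and Cldn5 or Cldn11 responded alike.

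**Figure D3:**
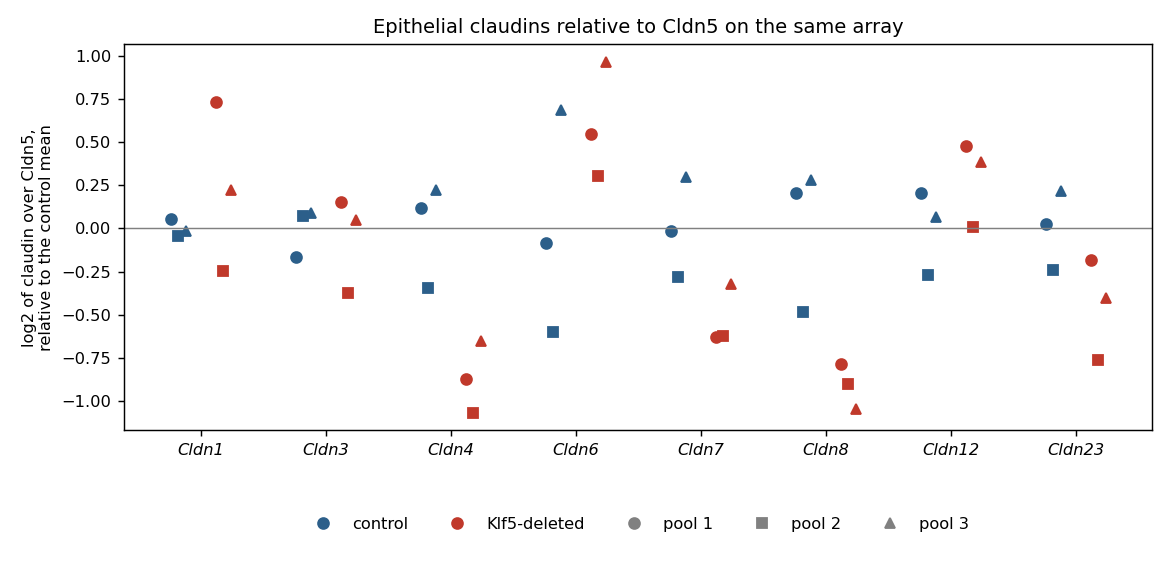
Log2 value of each epithelial claudin minus that of Cldn5 on the same array, drawn relative to the mean of the 3 control arrays; blue points are control, red points Klf5-deleted, and symbols give the pool number. The groups do not overlap for Cldn4, Cldn7 and Cldn8, and they overlap for Cldn1, Cldn3, Cldn6, Cldn12 and Cldn23.

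Other claudins on the array gave no call. Of 13 further claudins measured, 0 fell and 0 rose by limma, against 1.59% and 0.386% of all genes. Of these claudins 7 were lower and 6 higher, and the median difference was -0.01. Their mean log2 level was low, 6.67 to 6.96 on the control arrays, against 9.37 to 9.82 for the 8 epithelial claudins. RMA makes differences of dim features smaller, and whether these 13 stood above background was not analysed here. At the shares of all genes a list of 13 may well hold no call, and the missing calls do not show that these claudins stayed unchanged. At an unadjusted p under 0.05, 1 of them was higher and 0 were lower, against 5 lower among the 10 members and 8.08% lower and 6.34% higher among all genes. Their differences ran from -0.43 for Cldn10 to 0.17 for Cldn24. Only Cldn24 lay above its controls without overlap and the other 12 overlapped, where 8.67% of all genes lay above.

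Tight junctions also hold scaffolds, adhesion molecules and the proteins of tricellular corners. In a list of 23 such measured genes 2 fell and none rose, against 1.59% and 0.386% of all genes. Ildr1, an angulin that sits where 3 cells meet, read 7.37, 7.71 and 7.68 on the Klf5-deleted arrays and 9.41, 8.83 and 9.32 on the control arrays. Its difference of -1.60 (SE 0.16, adjusted p = 0.00493 by limma) was larger than that of any claudin. Tjp3, which codes for the scaffold ZO-3, read 8.02, 8.06 and 8.11 against 8.88, 8.71 and 8.81, a difference of -0.74 (SE 0.07, adjusted p = 0.00319 by limma). Both genes passed in each of the 14 other settings, those that left out 1 array included. With the replicate number as a block, Ildr1 passed only at the threshold itself, with an adjusted p of 0.04999 by limma, and Tjp3 had 0.0373.

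Other partners did not pass. Ocln, which codes for occludin, differed by -0.98 (adjusted p = 0.0798 by limma) and F11r, which codes for the adhesion molecule JAM-A, by -0.70 (adjusted p = 0.098 by limma), and neither overlapped between groups. F11r fell past the threshold without Klf5-deleted 2 and with array weights, with adjusted p of 0.0428 and 0.0457 by limma, which made 3 fallen partners in those fits. Tjp1, which codes for the more widely expressed scaffold ZO-1, differed by 0.01 (adjusted p = 0.962 by limma). The list held 12 lower and 11 higher genes, with a median of -0.01. Without overlap, 6 of the 23 lay below and 5 above their controls, against 11.8% and 8.67% of all genes. Jam2, of the same adhesion family as F11r, was 0.34 higher and rose past the threshold only in the fit without control 2, where its adjusted p was 0.0488 by limma.

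**Figure D4:**
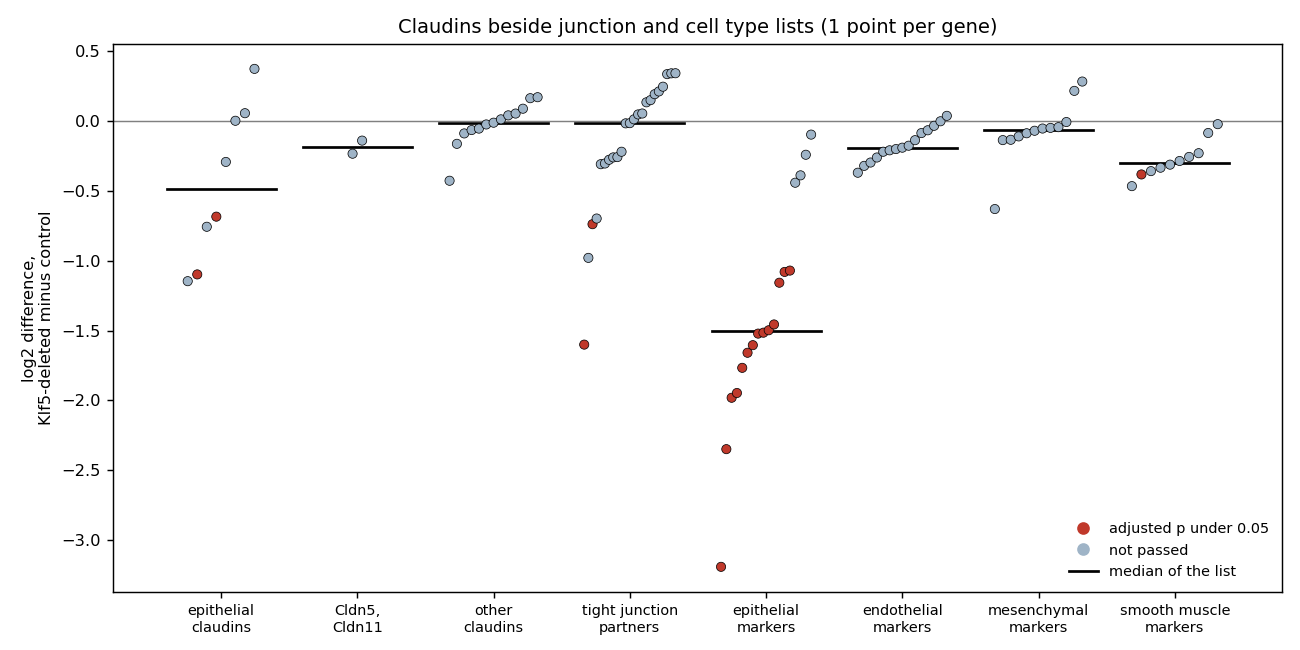
Log2 difference, Klf5-deleted minus control, with 1 point per gene and a line at the median of each list; red points passed an adjusted p of 0.05 by limma. The epithelial claudins lay between -1.15 and 0.37, and the epithelial markers between -3.19 and -0.10.

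Listed markers of the epithelium were lower along with these claudins, to unlike degrees. Of 18 measured epithelial markers 14 fell and none rose, against 1.59% and 0.386% of all genes. Their median difference was -1.51, against -0.49 for the 8 epithelial claudins, and depends on which genes the list holds. The uroplakin genes Upk2, Upk1b and Upk3a had its largest falls, -3.19, -2.35 and -1.98. The mean log2 level of the list was 8.79 to 9.03 on the Klf5-deleted arrays and 10.16 to 10.37 on the control arrays. Cdh1, which codes for E-cadherin of the adherens junction, differed by -1.50 (adjusted p = 0.0103 by limma), and Krt8 and Krt18, keratins of simple and surface epithelial cells, differed by -1.77 and -1.52. Epcam, a surface protein of most epithelial cells, differed by -0.39 (adjusted p = 0.521 by limma). Krt5 and Trp63, of basal cells, differed by -0.10 and -0.24 (adjusted p = 0.938 and 0.384 by limma). Grhl2, the remaining marker that did not pass, differed by -0.44 (adjusted p = 0.15 by limma). How much of the claudin differences moved with the epithelial share of the RNA was not tested.

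The arrays also differed in placental transcripts. Control 2 read 13.13 for Tpbpa, a placental transcript, against 6.18 to 10.34 on the other arrays, and the mean of 6 measured placental markers was 9.57 there against 6.29 to 7.70. It also had the highest mean for leukocyte markers (9.15 against 8.42 to 8.62), yolk sac markers (9.50 against 8.27 to 9.11) and intestine markers (7.93 against 7.10 to 7.62). The same held for the lists of red blood cells, neurons and glia, and stress. Among the controls, control 2 had the lowest value for 6 of the 8 epithelial claudins, Cldn4, Cldn6, Cldn7, Cldn8, Cldn12 and Cldn23. Klf5-deleted 2, with the next highest placental mean of 7.70, had the highest value of its group for 6 of the 8, Cldn3, Cldn4, Cldn7, Cldn8, Cldn12 and Cldn23. These places rest on a single array in each group, and the share of all genes with such places was not computed. The part of placental RNA, or of RNA from these other sources, in the claudin values was not tested. In Klf5-deleted bladders Klf5 itself differed by -0.59 (SE 0.10, adjusted p = 0.0381 by limma) without overlap. Over all genes 318 fell and 77 rose, or 1.98% in all; centring each array on its median gave 273 and 116, and centring on the mean of housekeeping genes gave 269 and 121. Cldn4 and Cldn23 passed under both centrings and Cldn8 under the second, with an adjusted p of 0.0483 by limma. Of 10 smooth muscle markers Synpo2 fell by limma. All 10 were lower, with a median difference of -0.30, and 7 lay below their controls without overlap, against 11.8% of all genes. The mean log2 level of these markers was 11.61 to 11.84 on the Klf5-deleted and 11.85 to 12.16 on the control arrays. Their part in the claudin differences was not tested. Of 7 mesothelial markers Msln and Krt19 fell and Wt1 rose, where 1.59% of all genes fell and 0.386% rose. Krt19 stood in the epithelial list too. The mesothelial list held 3 lower and 4 higher genes, with a median difference of 0.36. Among placental markers Tfap2c fell, a factor that epithelia express too. No gene passed in the lists for mesenchyme (12 measured), leukocytes (8), red blood cells (5), neurons and glia (8), nephric duct (8), intestine (8), yolk sac (6), housekeeping (10) and stress (8). Among all genes 1.98% passed.

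**Figure D5:**
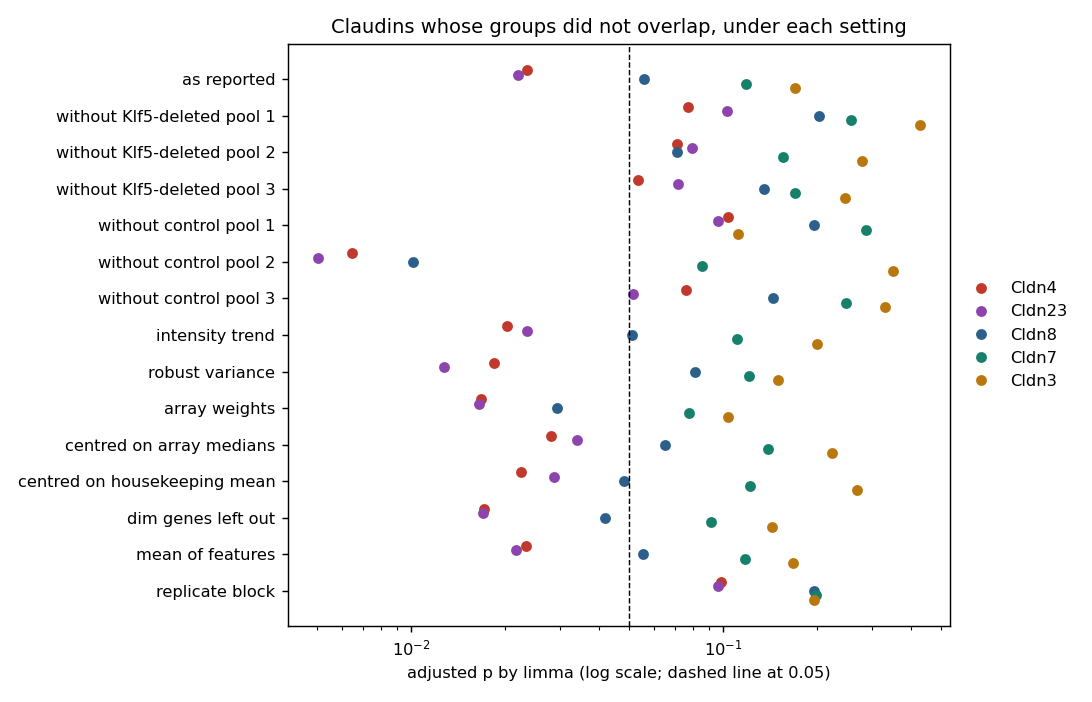
Adjusted p by limma, on a log axis, of the 5 claudins whose groups did not overlap, as reported and under each of the 14 other settings; the dashed line marks 0.05. Cldn4 and Cldn23 lie left of the line as reported and without control 2, and right of it without any other array and with the replicate number as a block.

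The genes whose profiles over the 6 arrays were most like that of a claudin were found by the root mean square difference of their log2 values, each gene centred on its own mean. For Cldn4 they were Bcl2l14, with a root mean square difference of 0.07, Esrp1 with 0.08, Slc35g1 and Sptlc3 with 0.10 each, and St14 with 0.11. All of these genes fell, by 1.04 to 1.17 on the log2 scale. Esrp1 codes for a splicing factor of epithelial cells, St14 for the membrane protease matriptase and Sptlc3 for a subunit of the enzyme that starts sphingolipid synthesis. For Cldn5 they were Tmem160, Emc7, S100a10, Slc35g2 and 4931403M11Rik, at 0.06 to 0.08, none of which was in the endothelial list. For Cldn11 the nearest were Cdh6, Ntrk2, Acta1, Cryab and Fmo1, at 0.23 to 0.25, so no gene followed Cldn11 as closely as Bcl2l14 followed Cldn4. Acta1, the actin of skeletal muscle, read 11.22, 11.51 and 12.23 on the Klf5-deleted arrays and 11.46, 11.84 and 10.96 on the control arrays, with Klf5-deleted 3 highest as for Cldn11. With 6 arrays these likenesses are descriptions, and the profiles of Cldn4 share the difference between genotypes.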

How the data were processed

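The authors deposited log2 expression values, 1 per feature and array, made with RMA (background correction, quantile normalization and probe summary), per the submitters' processing notes. The sources used here name neither the version of RMA nor a genome build or probe annotation. The log2 scale was inferred from the values. The table held 35557 features, of which 21789 had a single gene symbol in GEO's platform annotation, 1621 several and 12147 were unnamed here. For 999 genes with several features the one with the highest mean over all 6 arrays was kept, which left 19938 genes. All 10 claudins matched a RefSeq gene of GRCm38.p6 by Entrez identifier.

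Klf5-deleted was compared with control with a two-sided moderated test in limma (version 3.58.1, R version 4.3.3), which used no intensity trend and a Benjamini-Hochberg adjustment over all genes. The number of arrays limits the precision. Contrasts between 2 claudins used exact permutation. The fit was also run on simulated data with independent noise for each gene, which held no differences in tissue content between arrays. Its outcome is not given here and bears on no call. The members, lists and the rule for named genes were chosen with earlier results of these data known. That rule took the members, Klf5, the list genes that passed, Tjp1, Ocln and F11r, the first 2 genes of each cell type list and the 5 nearest profiles of Cldn4, Cldn5 and Cldn11; those whose values bear on no claudin are not given. Jam2, Mbp, Mog, Trp63, Krt5, Grhl2 and the claudins outside the members that are named singly were picked with their values in view. The 14 other settings were leaving out each array, an intensity trend, robust variance, array weights, both centrings, leaving out genes whose mean was below the 25th percentile, the mean of a gene's features, and the replicate number as a block.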

Additional observations from a re-analysis of the deposited data

How the results depend on the processing

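The count of fallen claudins was 2, and 3 with array weights, with housekeeping centring and with dim genes left out; it ran from 0 to 3 in the fits that left out 1 array, being 3 without control 2 and 0 without any other. With the replicate number as a block it was 0, and Cldn4 and Cldn23 then had adjusted p of 0.0985 and 0.0968 by limma. The sample titles give a number and do not say whether arrays of the same number were paired. Deviations of same-numbered arrays from their group means correlated at 0.00915, 0.0313 and 0.0787 across genes, and those of other pairs at -0.0533 to 0.011. Klf5-deleted 1 correlated best with control 2, at 0.011, while Klf5-deleted 2 and Klf5-deleted 3 correlated best with the control of their own number. These values do not settle whether the block is the right model. All genes past the threshold numbered 105 lower and 5 higher with the block. The count of fallen junction partners was 2, and 3 without Klf5-deleted 2 and with array weights. The count of risen junction partners was 0, and 0 to 1 in the fits that left out 1 array. Differences near 0 changed sign when 1 array was left out: Cldn1 ran from -0.105 to 0.0653, Cldn12 from -0.0644 to 0.16 and Cldn11 from -0.56 to 0.20, and none of these passed. Within arrays, Cldn1 minus Cldn5 ran from -0.0128 to 0.48, Cldn3 minus Cldn5 from -0.16 to 0.10, Cldn1 minus Cldn11 from -0.31 to 0.60, Cldn3 minus Cldn11 from -0.46 to 0.25 and Cldn12 minus Cldn11 from -0.14 to 0.61. The cause of these changes was not tested beyond the smaller number of arrays. Cldn3, Cldn4, Cldn5, Cldn7, Cldn8 and Cldn23 were lower and Cldn6 higher in all 14 other settings. The calls rest on 3 pools a genotype, signal over background was not analysed here, and whether probes of 1 claudin also read a close paralog was not tested.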

Other observations

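Cldn13, a claudin of mouse blood-forming tissue and no member of the set above, was the most variable claudin outside it and was chosen after its values were seen. It read 8.09, 6.73 and 8.08 on the Klf5-deleted arrays and 6.69, 9.10 and 6.84 on the control arrays. The mean log2 level of 5 red blood cell markers on the same arrays was 11.88, 11.24 and 11.99 for Klf5-deleted and 10.72, 12.32 and 11.41 for control. Control 2 was the highest and control 1 the lowest array in both. The difference of Cldn13 between genotypes was 0.09 (95% interval -1.47 to 1.65, adjusted p = 0.973 by limma).

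Cldn10, of kidney tubules and other epithelia, read 7.08, 7.19 and 7.28 on the Klf5-deleted arrays and 7.57, 8.08 and 7.17 on the control arrays, and was likewise chosen after its values were seen. Control 2 was again the highest, control 3 lay inside the range of the Klf5-deleted arrays, and the gene did not pass (difference -0.43, adjusted p = 0.414 by limma). The placental markers and the epithelial claudins of control 2 are given with the results above, and the part of placental or blood RNA in these readings was not tested.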
